A study of Mus musculus with 24 samples.

Results

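The 3 genes of the fibrinogen chains, Fga, Fgb and Fgg, were followed through 24 mouse kidney libraries. They were taken by symbol from the 55416 gene IDs of the normalized count table, and they were selected on the size of their rise after kidney injury in these same libraries. Their levels in injured against sham kidneys are therefore given as a description, without a test. The libraries came from 4 groups of 6 animals: sham surgery in Polg+/+ littermates (Sham Polg+/+), sham surgery in PolgD257A mice (Sham PolgD257A), and ischemia reperfusion injury in each genotype (B-IRI Polg+/+ and B-IRI PolgD257A). Polg encodes the catalytic subunit of the polymerase that copies mitochondrial DNA, and the PolgD257A change removes its proofreading, so that mitochondrial DNA gathers mutations. The series asks how such mutations add to kidney injury after ischemia reperfusion. The sources used here give no age, sex, time after surgery or zygosity of PolgD257A. Each library is whole-kidney RNA, and the loss of proofreading is not limited to 1 cell type.

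Fibrinogen is the soluble plasma protein that thrombin turns into the fibrin of a clot. It is assembled from paired copies of an alpha, a beta and a gamma chain, encoded by Fga, Fgb and Fgg, and it is made mainly by hepatocytes, where interleukin 6 raises its synthesis during the acute-phase response. Transcripts of the chains are also known from kidney epithelium after ischemic injury, and fibrin is broken down by plasmin, which is made from plasminogen.

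The genes form a cluster of 42.1 kb on mouse chromosome 3 (GRCm38, GENCODE M21). Fgg (ENSMUSG00000033860.14) lies at chr3:83007724-83015049 on the plus strand, with 2093 exonic bases in 10 exon blocks. Fga (ENSMUSG00000028001.17) follows at chr3:83026076-83033627 on the plus strand, with 3010 exonic bases in 6 blocks. Fgb (ENSMUSG00000033831.6) lies at chr3:83040141-83049863 on the minus strand, with 3810 exonic bases in 8 blocks. The antisense lincRNA Gm30097 overlaps 765 bases of Fgg, 115 of them exonic. The sources used here do not say whether the counting used strand, so reads in that overlap cannot be told apart. Gm30097 had group means of 13.4, 6.74, 5.81 and 8.08 normalized counts (in the order Sham Polg+/+, Sham PolgD257A, B-IRI Polg+/+, B-IRI PolgD257A), well under the level of Fgg.

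The promoters are shown because the 3 genes moved together. These are the 250 bases before each RefSeq start site (GRCm38.p6), read 5′ to 3′ on the strand of the gene. Capitals mark the letters CTGGGAA, the core of the type 2 interleukin 6 response element, and TTCNNNGAA, the spacing bound by STAT factors.
Fga, chr3:83025903-83026152: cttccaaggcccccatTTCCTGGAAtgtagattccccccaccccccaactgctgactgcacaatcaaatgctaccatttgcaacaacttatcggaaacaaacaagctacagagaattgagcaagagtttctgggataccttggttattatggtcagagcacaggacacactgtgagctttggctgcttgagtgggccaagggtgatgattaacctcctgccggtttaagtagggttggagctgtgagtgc
Fgb, chr3:83049864-83050113: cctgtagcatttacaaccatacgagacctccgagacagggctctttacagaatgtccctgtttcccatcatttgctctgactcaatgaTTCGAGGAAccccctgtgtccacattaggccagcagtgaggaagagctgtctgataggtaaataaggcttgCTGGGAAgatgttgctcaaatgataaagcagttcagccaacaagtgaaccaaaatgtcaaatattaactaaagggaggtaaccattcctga
Fgg, chr3:83007474-83007723: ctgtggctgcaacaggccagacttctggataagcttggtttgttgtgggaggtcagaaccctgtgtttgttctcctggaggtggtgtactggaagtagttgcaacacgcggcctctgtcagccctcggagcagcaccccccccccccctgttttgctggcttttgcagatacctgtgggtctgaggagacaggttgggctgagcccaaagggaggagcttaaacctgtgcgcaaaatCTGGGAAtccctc

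The match CTGGGAA was found in Fgb, from position -91 to -85 before the start site, and in Fgg, from -13 to -7, but not in this window of Fga. Of 32851 mouse promoters searched over the same length on both strands, 9.10% held it. The STAT spacing TTCNNNGAA was found in Fga (-234 to -226) and Fgb (-162 to -154), and in 7.02% of all promoters. The C/EBP form TTGCNNAA was found in Fga (-135 to -128) and Fgb (-80 to -73), and in 9.56%. TATAAA was in none of the 3 windows and in 12.4% of all promoters. None of these matches overlapped another. GENCODE M21 begins Fga upstream of the RefSeq start, so the last 77 bases of its window lie inside that gene model. A match of letters is a description of the sequence and does not show that a factor binds there.

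All 3 chains were measured in every kidney, sham kidneys included. Fga, which encodes the alpha chain, had the highest sham level. It ranged from 375.5 to 466.5 normalized counts in Sham Polg+/+ (median 427.4) and from 432.4 to 766.4 in Sham PolgD257A (median 531.9). In B-IRI Polg+/+ it ranged from 1114 to 3429 (median 2209), and in B-IRI PolgD257A from 2566 to 10765 (median 8953). Every injured library lay above every sham library of either genotype. The injured groups overlapped through 1 library, B-IRI PolgD257A replicate 3, whose 2566 fell among the B-IRI Polg+/+ values.

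Fgb, which encodes the beta chain, was scarce in sham kidneys. It ranged from 13.5 to 51.6 normalized counts in Sham Polg+/+ (median 21.3) and from 19.0 to 34.3 in Sham PolgD257A (median 27.7). The 51.6 came from Sham Polg+/+ replicate 6, while the other libraries of that group held 13.5 to 23.7. After injury Fgb ranged from 149.6 to 618.6 in Polg+/+ (median 417.6) and from 470.8 to 2599 in PolgD257A (median 2029). Its lowest value in B-IRI PolgD257A was again that of replicate 3. In recovered reads the sham values of Fgb rested on 12 to 47 reads per library, against at least 103 for Fgg and 308 for Fga, so its sham level and every fold built on it were the least precise.

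Fgg, which encodes the gamma chain, was close to constant in sham kidneys, from 121.8 to 171.3 normalized counts in Polg+/+ (median 151.0) and from 126.5 to 163.3 in PolgD257A (median 147.3). It reached 921.8 to 3134 in B-IRI Polg+/+ (median 2100) and 2378 to 9369 in B-IRI PolgD257A (median 7516). As with the other chains, the injured libraries stood clear of the sham libraries and replicate 3 was lowest in B-IRI PolgD257A. The lowest B-IRI Polg+/+ value belonged to replicate 4 in all 3 chains.

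**Figure D1:**
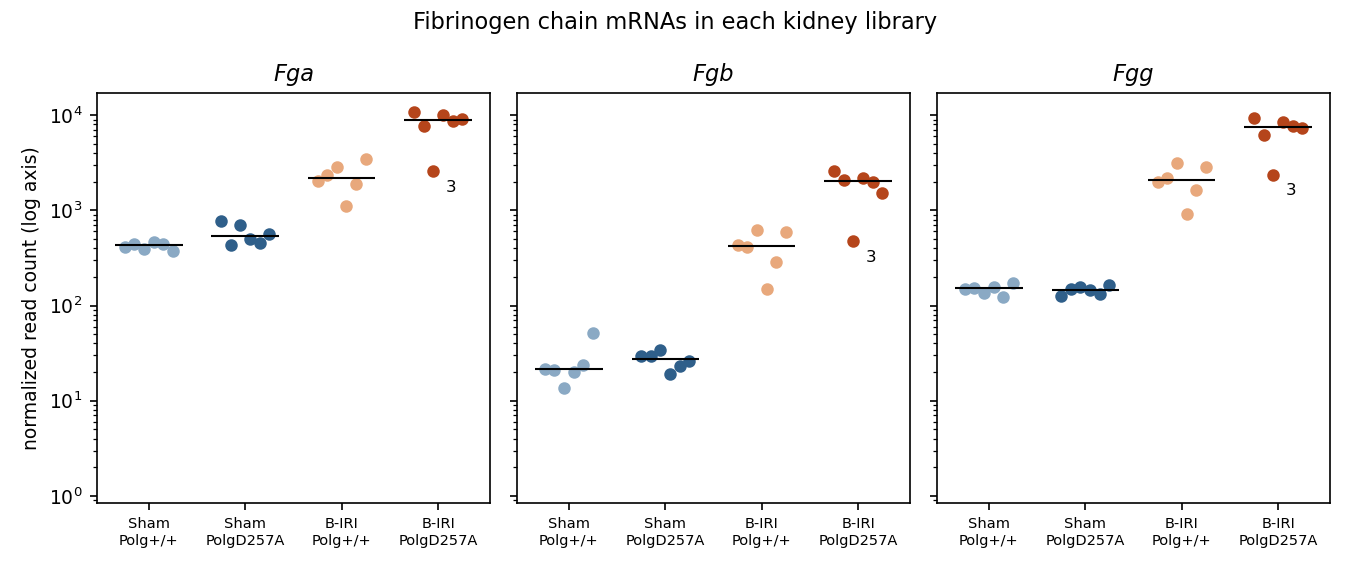
Normalized read counts of Fga, Fgb and Fgg (log axis) in the 24 libraries, with each point 1 library and each line the group median. All injured libraries lie above all sham libraries of the same gene, and B-IRI PolgD257A replicate 3 (marked 3) lies with the B-IRI Polg+/+ libraries, at 2566, 470.8 and 2378.

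The ratio of group means describes the size of the difference. In Polg+/+ kidneys Fga went from 421.9 ± 33.0 to 2288 ± 806 normalized counts (SD, n = 6), a ratio of 5.42. Fgb went from 25.2 ± 13.4 to 414.8 ± 180.5, a ratio of 16.4, and Fgg from 147.8 ± 17.0 to 2124 ± 805, a ratio of 14.4. Fga thus had the highest sham level and the smallest ratio. In PolgD257A kidneys Fga went from 570.6 ± 136.5 to 8167 ± 2946, a ratio of 14.3. Fgb went from 27.0 ± 5.34 to 1807 ± 741, a ratio of 67.1, and Fgg from 146.0 ± 14.1 to 6903 ± 2461, a ratio of 47.3. The lowest injured PolgD257A library was 3.35 times the highest sham PolgD257A library for Fga, 13.7 times for Fgb and 14.6 times for Fgg. As background, 11.5% of the 17430 genes tested had every B-IRI library above every sham library in Polg+/+ and 18.8% did so in PolgD257A. The 3 chains were chosen for this pattern, so nothing is read from their 3 of 3. A change in the number of cells of a type and a change in RNA per cell cannot be told apart in whole-kidney RNA, for rises and falls alike.

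On the fitted log2(normalized count + 1) scale, the B-IRI minus sham difference in Polg+/+ was 2.36 ± 0.26 for Fga, 3.96 ± 0.35 for Fgb and 3.74 ± 0.25 for Fgg (limma estimate ± SE). Ordered by size, these were places 86, 9 and 15 among 17430 genes. In PolgD257A the matching values were 3.74 ± 0.26, 5.86 ± 0.35 and 5.44 ± 0.25, in places 55, 9 and 13. The SE comes from 1 variance per gene pooled over the 4 groups. The spread itself was not equal, since the coefficient of variation of Fgg was 11.5% and 9.68% in the sham groups against 37.9% and 35.6% in the injured ones.

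Per kilobase of exon the chains can be compared with each other and with other genes. In Sham Polg+/+ kidneys Fga stood at 140 normalized counts per kb, Fgg at 70.6 and Fgb at 6.63. The median gene stood at 73.2, so that sham Fgg was at the level of a middling kidney gene, with 49.1% of 17381 genes below it. Fgb had 10.5% of genes below it and Fga 64.9%. In B-IRI PolgD257A the levels were 2713 for Fga, 3298 for Fgg and 474 for Fgb per kb. Fgg then ranked 287 and Fga 358 of the 17381 genes, and Fgb ranked 2302. In B-IRI Polg+/+, where the levels were 760, 1015 and 109 per kb, Fgg ranked 1091, Fga 1467 and Fgb 7126.

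Per kb of exon, the order of the chains changed with injury. Of the summed level per kb, Fga made up 64.5% ± 4.22 in Sham Polg+/+ and 70.5% ± 5.02 in Sham PolgD257A (SD, n = 6). After injury its share was 40.8% ± 2.64 in Polg+/+ and 41.7% ± 1.35 in PolgD257A. Fgg moved the other way, from 32.5% ± 3.04 and 26.8% ± 4.79 to 53.6% ± 2.19 and 51.1% ± 1.65. In all 12 injured libraries Fgg was above Fga per kb, and in all 12 sham libraries it was below. Fgb remained the scarcest chain, at 3.04% ± 1.58 and 2.68% ± 0.48 in sham and 5.62% ± 0.70 and 7.16% ± 1.21 after injury.

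The same shift was seen in the ratios within a library, which do not depend on the scaling between libraries. The Fga to Fgg ratio of normalized counts had a median of 2.89 in Sham Polg+/+ (2.19 to 3.60) and 3.46 in Sham PolgD257A (2.88 to 6.06). It was 1.11 in B-IRI Polg+/+ (0.919 to 1.21) and 1.17 in B-IRI PolgD257A (1.08 to 1.26). The sham and the injured ranges did not meet, and the injured ratios were narrowly spread although the counts themselves varied several fold. The Fga to Fgb ratio had a range of 7.28 to 29.2 and 14.6 to 26.5 in the sham groups, and medians of 5.76 and 4.51 in the injured groups. Here Sham Polg+/+ replicate 6, at 7.28, lay within the B-IRI Polg+/+ range of 4.66 to 7.45. These differences between sham and injured kidneys follow from the unequal rises that the genes were chosen on and were not tested.

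Whether genotype changed the proportions of the chains after injury was tested over the 12 injured libraries with an exact two-sided permutation test on log2 ratios, adjusted over the 3 ratios. The Fgb to Fgg ratio had a median of 0.258 in B-IRI PolgD257A against 0.191 in B-IRI Polg+/+, with 4 of 6 PolgD257A libraries above every Polg+/+ library. Its mean log2 difference of 0.41 did not pass after adjustment (exact permutation p = 0.0173, adjusted p = 0.052), and it passed without B-IRI PolgD257A replicate 3 (0.48, adjusted p = 0.039) or replicate 6 (0.46, adjusted p = 0.039). The Fga to Fgb ratio was lower by a log2 difference of -0.30 (exact permutation p = 0.065, adjusted p = 0.097), and passed without PolgD257A replicate 6 (-0.38, adjusted p = 0.039). For Fga to Fgg the difference was 0.10 (exact permutation p = 0.18, adjusted p = 0.18). The proportions of the chains were thus not separated by genotype at this number of libraries, with the beta chain transcript nearest to the threshold.

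**Figure D2:**
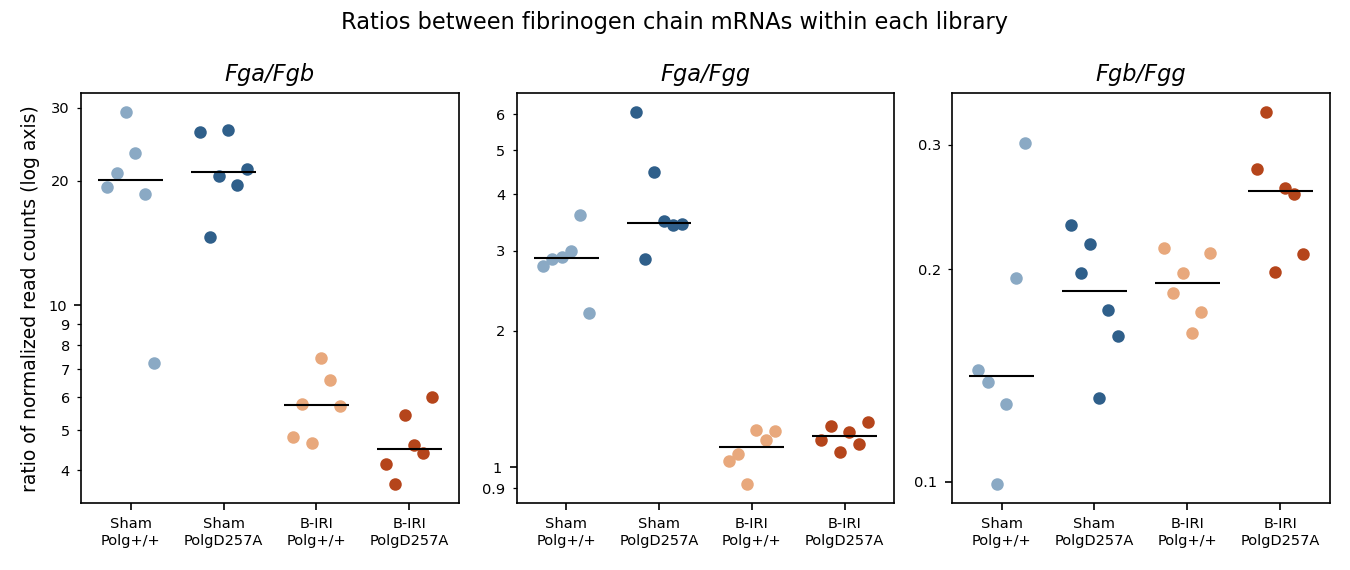
Ratios of normalized counts between the chains within each of the 24 libraries (log axis), with points for libraries and lines for group medians. The Fga to Fgg ratio lies at 2.19 or more in all sham libraries and at 1.26 or less in all injured libraries.

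In sham kidneys genotype made no detectable difference to the chains. PolgD257A against Polg+/+ gave a log2 difference of 0.41 ± 0.26 for Fga (95% interval -0.13 to 0.94, limma adjusted p = 0.80). For Fgb it was 0.19 ± 0.35 (-0.53 to 0.91, adjusted p = 0.94), and for Fgg -0.02 ± 0.25 (-0.53 to 0.50, adjusted p = 1). Of the 3 chains 0 passed, and 0 had an unadjusted p under 0.05, in limma and in edgeR alike. Of all 17430 genes 0.126% passed in this contrast. For Fga 4 of 6 Sham PolgD257A libraries lay above every Sham Polg+/+ library, and for Fgg the groups covered the same range. The intervals allow a difference of up to 0.94 on the log2 scale for Fga.

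After injury all 3 chains were higher in PolgD257A than in Polg+/+ kidneys. Fga, Fgb and Fgg were 3.45, 4.26 and 3.21 times as high on the fitted scale. The log2 difference was 1.79 ± 0.26 for Fga (limma adjusted p = 1.4e-05), 2.09 ± 0.35 for Fgb (adjusted p = 6.2e-05) and 1.68 ± 0.25 for Fgg (adjusted p = 1.9e-05). Of all genes tested, 14.3% were higher in this contrast, and the chains held places 26, 12 and 30 of 17430 by size. For each chain 5 of 6 PolgD257A libraries lay above every Polg+/+ library and 34 of 36 pairs of libraries had the PolgD257A value higher. No chain had groups that did not overlap, a pattern seen in 4.65% of genes, because of replicate 3. Without replicate 3 the differences were 2.10, 2.44 and 1.97. In the authors' deposited table of the same comparison the log2 fold changes were 1.75 ± 0.27 for Fga, 2.00 ± 0.37 for Fgb and 1.62 ± 0.27 for Fgg (with the authors' standard errors). Among the 651 genes listed as higher in the authors' deposited table they held places 22, 12 and 30. This contrast contains the injured libraries on which the chains were chosen, so its p-values are not wholly independent of that choice.

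The interaction term of the same fit compares the injury rises of the genotypes. The chains were chosen on the size of those rises, so its p-values are not independent of the choice and are given as a description. The rise exceeded the Polg+/+ rise by log2 1.38 ± 0.37 for Fga (limma adjusted p = 0.012), 1.90 ± 0.49 for Fgb (adjusted p = 0.0098) and 1.70 ± 0.36 for Fgg (adjusted p = 0.0022) in PolgD257A. Of all genes, 6.87% had a positive interaction past the threshold, and the chains held places 76, 25 and 37 by size. The Fgb call lies at the threshold, since edgeR on recovered reads gave 2.04 with an adjusted p of 0.0501.

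**Figure D3:**
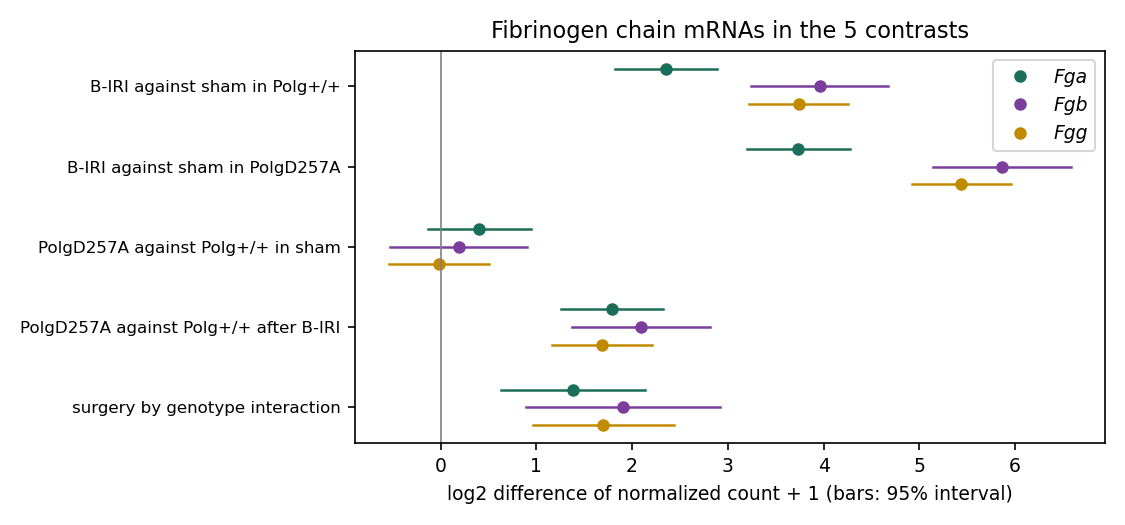
Log2 differences of the normalized count + 1 for Fga, Fgb and Fgg in the 5 contrasts, with points for the limma estimate and bars for its 95% interval. The genotype difference spans 0 for every chain in sham and lies at 1.68 to 2.09 after B-IRI.

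Within an injured group the chains varied together from kidney to kidney. In B-IRI Polg+/+ (n = 6) Pearson's r on log2 values was 0.970 for Fga with Fgb, 0.975 for Fga with Fgg and 0.992 for Fgb with Fgg (each exact permutation adjusted p = 0.0083 over 6 relations). Spearman's rho was 0.886, 0.943 and 0.943 (exact permutation adjusted p = 0.05, 0.033 and 0.033). Leaving out the 2 libraries farthest from the median of the first gene of each pair gave r of 0.917, 0.988 and 0.965. These r rest on few libraries and have no p, so they cannot exclude a part of the extremes. In B-IRI PolgD257A (n = 6) r was 0.964, 0.996 and 0.966 (exact permutation adjusted p = 0.040, 0.0083 and 0.030) and rho was 0.771, 0.943 and 0.829 (exact permutation adjusted p = 0.10, 0.033 and 0.07). Without the 2 farthest libraries, replicate 3 among them each time, r was -0.02 for Fga with Fgb, 0.927 for Fga with Fgg and 0.717 for Fgb with Fgg. In PolgD257A the r of Fga with Fgb thus depended on those libraries, while that of Fga with Fgg stayed high without them. All values share the scaling of their library.

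Replicate 3 of B-IRI PolgD257A was low in the chains, while other transcripts of injury were mixed there. Havcr1, which encodes the tubular injury marker KIM-1, stood at 33059 normalized counts there, within the 25923 to 36062 of the group. Krt20, a keratin of injured epithelium, stood at 2991 within 2297 to 5594. Lcn2, which encodes NGAL, was lowest in replicate 3 at 4486, close to the 4705 of replicate 5, and the group reached 12373. In B-IRI Polg+/+ Havcr1 ranged from 5441 to 24888.

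The genes most like the chains were sought among 10790 genes whose mean reached 100 normalized counts. Those whose deviations from the group mean were most like those of the chains over the 12 injured libraries were Rrbp1, Prkar1b, Riox1, C3, Ciita, Tapbp, Hip1r and Net1. Rrbp1, a ribosome-binding protein of the endoplasmic reticulum, had r = 0.957 (0.933 within Polg+/+, 0.974 within PolgD257A, and 0.488 within PolgD257A without replicate 3). It was a far smaller change, with group means of 4131, 4163, 4970 and 5744 normalized counts. The others had r from 0.868 for Net1 to 0.892 for Prkar1b. Within PolgD257A without replicate 3, Riox1, Ciita and Hip1r had r of 0.835, 0.851 and 0.847. There r was lower for Tapbp (0.584), Net1 (0.481), Prkar1b (0.088) and C3, the central complement protein (-0.02), and with Rrbp1 their likeness within PolgD257A rested largely on replicate 3. For Lcn2 r was 0.685 (rank 168; 0.855 within Polg+/+ and 0.581 within PolgD257A). For Havcr1 r was 0.408 (rank 1292; 0.673 and -0.03). These are descriptions over 12 libraries that share their scaling.

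After injury the genes around the cluster changed far less or fell. Of 15 other genes annotated within 500 kb, 14 were in the table and 3 passed the filter on low values: Lrat, Gm30097 and Plrg1. Plrg1, a spliceosome component just beyond Fgb, had group means of 598, 630, 697 and 782 normalized counts, with a log2 difference of 0.22 ± 0.05 in Polg+/+ (limma adjusted p = 0.0021) and 0.31 ± 0.05 in PolgD257A (adjusted p = 2.5e-05). Lrat, which esterifies retinol, fell, with means of 59.1, 45.8, 29.4 and 27.5 and a log2 difference of -1.0 ± 0.22 in Polg+/+ (adjusted p = 0.00065) and -0.77 ± 0.22 in PolgD257A (adjusted p = 0.0034). Gm30097, antisense to the start of Fgg, fell in Polg+/+ (-1.03 ± 0.27, adjusted p = 0.0035) and was at 0.23 ± 0.27 in PolgD257A (adjusted p = 0.48). Its interaction of 1.27 ± 0.39 passed (limma adjusted p = 0.026), at low counts, while those of Plrg1 (0.09) and Lrat (0.22) did not. Between the injured genotypes Plrg1 was higher (0.16 ± 0.05, limma adjusted p = 0.026). Lrat (-0.12) and Gm30097 (0.41) did not pass there.

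**Figure D4:**
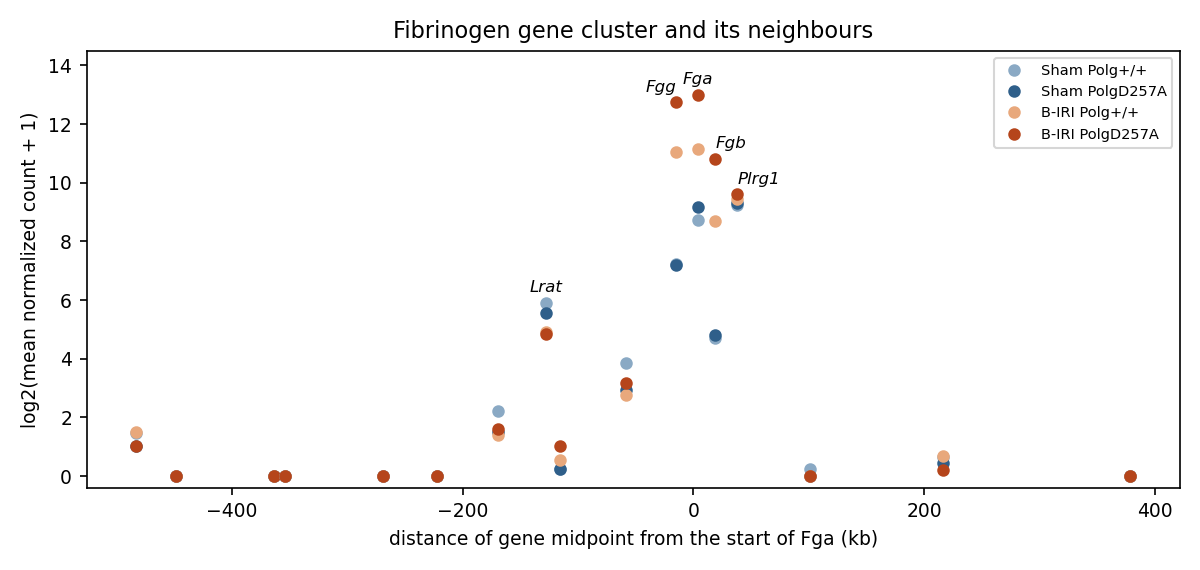
Mean normalized counts of Fga, Fgb, Fgg and the other genes of the table within 500 kb (log2 of mean + 1), against distance from the start of Fga in kb, with 1 point per group. The chains climb from sham to B-IRI PolgD257A while Plrg1 moves from 598 to 782 and Lrat falls.

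The genes that make and remove fibrin were read in the same fit. Of all genes 21.4% were higher and 19.8% lower after injury in Polg+/+, and 30.2% higher and 30.3% lower after injury in PolgD257A. Between the injured genotypes 14.3% were higher and 15.2% lower in PolgD257A. These shares are the background for every list count in these contrasts, here and below. Of 11 thrombin generation genes tested, 2 rose (F3 and Kng1) and 7 fell after injury in PolgD257A, at a median of -0.43 against 0.00 for all genes. F2, which encodes prothrombin, had 36.8 normalized counts in Sham Polg+/+ and 17.8 in B-IRI PolgD257A, and fell in both genotypes (log2 -1.17 and -1.19, limma adjusted p = 0.018 and 0.010). F3, the tissue factor that starts clotting, rose (0.78 and 1.69) and was higher in PolgD257A after injury (0.92 ± 0.10, adjusted p = 4.1e-07), where Klkb1 (-1.06) and Kng2 (-0.36) were lower. In edgeR 2 genes of this list were higher in that contrast. Anticoagulants and thrombin receptors had 7 higher and 2 lower of 11 at a median of 1.06, and 6 higher and 2 lower between the injured genotypes. Pros1 (1.17 after injury in PolgD257A), F2r (1.25) and F2rl1 (1.39) were among the rises, and Proc (-1.12) and Serpinc1 (-1.69), which encodes antithrombin, were the falls.

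Of 15 genes of clot crosslinking and fibrinolysis, 11 rose and 3 fell after injury in PolgD257A (median 1.21), and 9 were higher and 1 lower between the injured genotypes. Plg, which encodes plasminogen, was 11.9 and 13 normalized counts in the sham groups and 1.81 and 1.29 in the injured ones, the reverse of the chains. Of the plasminogen activators, Plat rose (0.70 and 1.22) and Plau was at 0.05 in Polg+/+ (adjusted p = 0.72) and 0.36 in PolgD257A (adjusted p = 0.0031). The other falls were F13b (-1.38), a factor XIII subunit that was also the gene lower between genotypes (-0.50), and Serpinf2 (-1.55), which encodes the inhibitor of plasmin. Tgm2, a crosslinking enzyme of tissues, was at 1.21 and S100a10 at 2.25.

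Receptors that bind fibrin or fibrinogen were mostly higher. Of 11, 9 rose and 1, Itga2b, fell after injury in PolgD257A (median 0.68), and 6 were higher and 1, again Itga2b (-0.55), lower between the injured genotypes. Icam1 (1.41), Itgb1 (0.68), Cdh5 (0.49) and Itgav (0.36) were the most abundant that rose. Genes for other proteins with a fibrinogen-like domain were mixed. Of 14 tested, 2 rose (Tnc and Angptl6) and 6 fell (median -0.26), and Tnc (1.36), Angptl4 (0.62) and Fgl2 (0.58) were higher between the injured genotypes. Tnc, which encodes the matrix protein tenascin-C, rose in both genotypes (1.61 and 2.85).

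Of 17 genes of interleukin 6 family signaling, 12 rose and 2, Lifr (-0.55) and Il11ra1 (-0.67), fell after injury in PolgD257A, at a median of 0.46. Between the injured genotypes 10 were higher and 1, Il11ra1 (-0.41), was lower. Stat3, the transcription factor of this pathway, went from 1376 and 1430 normalized counts in sham to 2540 and 3847 after injury, and its genotype difference was 0.61 ± 0.08 (limma adjusted p = 7.3e-06). Its target Socs3 went from 56.8 and 50.5 to 319 and 732, with a difference of 1.31 ± 0.27 (adjusted p = 0.00058). Il6 itself was near the floor in sham, at 0.608 and 0.833, and at 7.35 and 14.4 after injury. It could pass the filter on low values only through injured libraries, so a rise of Il6 is in part fixed by that filter. Its difference between the injured genotypes was 0.88 (adjusted p = 0.26). Of 8 liver-enriched and acute-phase transcription factors tested, 2 rose (Cebpb, 1.38, and Cebpd, 1.67) and 5 fell after injury in PolgD257A. Over all genes 30.2% rose and 30.3% fell in that contrast. Hnf4a (-0.42), Nr3c1 (-0.51) and Nr1h4 (-0.68) were among the falls. Under quantile normalization 2 rose and 3 fell, so the number of falls depends on the normalization.

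Other acute-phase genes, among them plasma protein and metallothionein genes, moved unevenly. Of 23 in the list 13 passed the filter, 8 rose and 1, Cfb (-1.38), fell after injury in PolgD257A (median 0.76), and 7 were higher and 1, Cfb (-0.52), lower between the injured genotypes. C3 went from 374 and 307 normalized counts to 2296 and 3772, Cp, which encodes ceruloplasmin, from 807 and 702 to 2209 and 3430, and Mt1, a metallothionein, from 2342 and 2347 to 4107 and 7341. Their genotype differences after injury were 0.69, 0.63 and 0.84 on the log2 scale, against 1.68 to 2.09 for the chains. Among the less abundant members, named after their values were seen, Saa1, a serum amyloid A gene, was at 5.76 after injury in PolgD257A and 1.22 between the injured genotypes. Serpina3n, a protease inhibitor gene, was at 4.15 and 1.29, and Mt2 at 2.83 and 1.42. How far these differ from the chains was not tested.

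**Figure D5:**
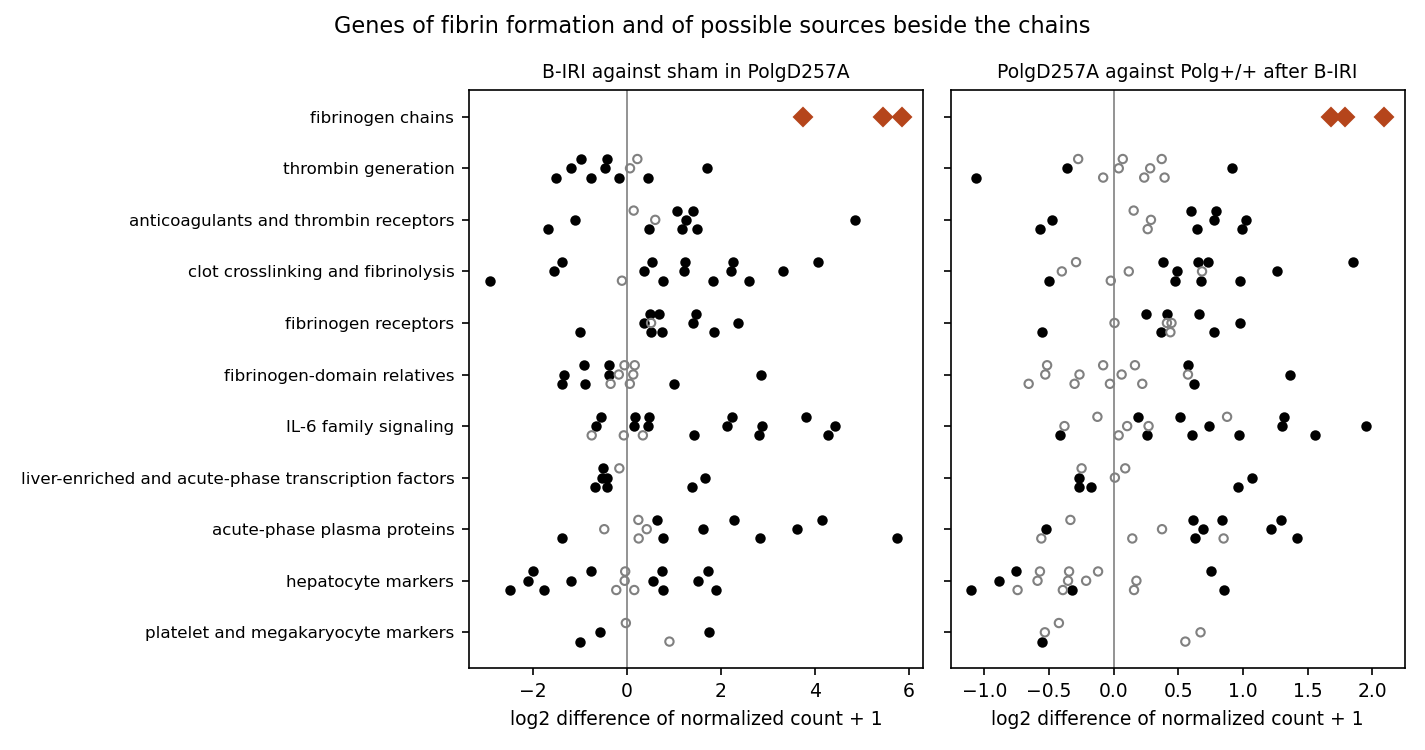
Log2 differences of the chains (diamonds) and of genes in 10 lists (circles, filled where the adjusted p is under 0.05), for B-IRI against sham in PolgD257A on the left and PolgD257A against Polg+/+ after B-IRI on the right. The chains lie at 3.74 to 5.86 on the left and 1.68 to 2.09 on the right.

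Hepatocytes are the usual source of these transcripts, and their markers were mixed. Of 16 tested, 5 rose and 5 fell after injury in Polg+/+, and 6 rose and 6 fell in PolgD257A. Over all genes 21.4% rose and 19.8% fell in Polg+/+, and 30.2% rose and 30.3% fell in PolgD257A. The group means of Ahsg were at most 1.05 normalized counts and those of Cps1 at most 0.441. Cps1 was at 0 in all 6 B-IRI PolgD257A libraries. Alb, which encodes albumin, had means of 111.6 and 131.1 in sham and 76.1 and 58.0 after injury, and Apoa2 went from 125.5 and 134.1 to 99.2 and 79.4. The summed level of all 23 hepatocyte markers ranged from 9284 to 12930 in Sham Polg+/+, from 11865 to 13623 in Sham PolgD257A, from 9024 to 13488 in B-IRI Polg+/+ and from 7087 to 12962 in B-IRI PolgD257A. The largest members of that sum were Apob, Serpina1d and Ttr. The Serpina1 genes are near-identical copies, between which reads may have been split. In both genotypes Apoc3 (1.96 and 1.5), Serpina1b (2.17 and 1.90), Serpina1a (1.15 and 0.77), Rbp4 (1.05 and 1.72) and Gc (0.44 and 0.54) rose. In PolgD257A Trf (0.75) rose too. Between the injured genotypes 2 (Trf and Gc) were higher and 4 (Apoa2, Ttr, Serpina1d and Hrg) lower. The part of hepatocyte RNA in the result was not tested.

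Platelets carry fibrinogen, and the sum of 10 platelet and megakaryocyte markers was lower in injured PolgD257A kidneys, from 198.5 to 251.2 normalized counts against 256.3 to 363.6 in Sham PolgD257A. In Polg+/+ the sums overlapped, at 239.3 to 280.6 after injury and 266.6 to 320.0 in sham. The largest member of the sum was Itga2b, with means of 256.1 in Sham PolgD257A and 126.0 in B-IRI PolgD257A. Pf4 had means of 15.9, 17.3, 39.2 and 61.5, and rose (1.21 and 1.74), while Itga2b fell (-0.33 and -1.01), as did Gp1ba (-0.59 and -0.58), and Gp1bb was at 0 in every group. Of the 5 tested, 1 rose and 2 fell in PolgD257A, against 2 and 1 under quantile normalization. All 6 red cell markers tested fell after injury in each genotype, and the sum over the list of 7 ranged from 2053 to 4145 in B-IRI PolgD257A against 4112 to 17093 in Sham PolgD257A.

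Markers of tubular state and, in part, of infiltrating cells moved in the same contrasts as the chains, and their part in the result was not tested. All 14 injured tubule markers rose in each genotype, and 10 were higher in PolgD257A after injury, with Spp1 at 1.39, Clu at 1.23, Krt8 at 0.89 and Havcr1 at 1.34. Their sum ranged from 24222 to 32888 in Sham Polg+/+ and from 230977 to 439167 in B-IRI PolgD257A. The 12 proximal tubule markers marked the tissue as kidney, with Kap at 492879 normalized counts in Sham Polg+/+, and all 12 fell after injury in PolgD257A. Their sum ranged from 866097 to 1111885 in Sham PolgD257A and from 301456 to 482382 in B-IRI PolgD257A. Of 11 macrophage markers, 5 rose (Cd68, Cd14, C1qa, C1qb and Arg1) and Csf1r fell after injury in PolgD257A, and the sum reached 3214 to 4597 against 2714 to 3302. Between the injured genotypes 3 (Adgre1, Cd68 and Cd14) were higher and 1 (Csf1r) lower. In the interaction 1 (Cd14) was positive and 1 (Csf1r) negative. Over all 17430 genes, 1198 had a positive and 1582 a negative interaction past the threshold. Nothing is therefore read from the macrophage interaction calls. The 3 neutrophil markers tested of 9, S100a8, S100a9 and Csf3r, rose after injury in PolgD257A and were higher there than in injured Polg+/+. The sum over the list was 83.7 to 506.8 in B-IRI PolgD257A against 17.1 to 55.0 in Sham PolgD257A. Its median was only 24.4 and 25.2 in the sham groups. These genes could thus pass the filter largely through injured libraries, so their rise is in part fixed by it.

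Between the genotypes in sham, 0 of the 166 tested genes of these 15 lists passed in limma or in edgeR. In each, 12 had an unadjusted p under 0.05. The share of all genes at that unadjusted threshold is not given here, so nothing is read from the 12. Without Sham Polg+/+ replicate 6, 1 hepatocyte marker passed.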

How the data were processed

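Kidney RNA was purified on RNeasy columns, and NEBNext Ultra II libraries were made from 2 µg, per the labels' protocols. The submitters' processing notes name FastQC, STAR, SAMtools, featureCounts and DESeq2, without versions, and the GRCm38.p6 build. The signal values deposited by the authors are normalized counts: each library's gene counts over its own size factor (0.740 to 1.31, recovered from the values). Multiplying back gave whole reads for 100% of values within 0.001. The libraries held 16689284 to 26341004 such reads. A second table deposited by the authors gives shrunken log2 fold changes with standard errors and an s-value, a p-value-like chance of a wrong sign, for 1401 genes. Column names reading Ctrl, Mut and SurgBIR were taken as Polg+/+, PolgD257A and B-IRI. No label states this, and every comparison rests on it. The labels call the 6 libraries of a group biological replicates.

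Tests used limma 3.58.1 in R 4.3.3, with its trend option. The model held a mean for each group of the 24 libraries, fitted to log2(normalized count + 1). It covered the 17430 genes that reached 10 normalized counts in 6 or more libraries, with Benjamini-Hochberg adjustment per contrast at 0.05. The pseudocount understates changes of low genes. A gene scarce in sham could pass the filter through injured libraries alone, which favors rises in the list counts. All 3 chains passed this filter in every library. Exact permutation tests of 6 against 6 used all 924 relabelings, and correlations all 720 orders. Other settings tried were no filter or one of 50, a pseudocount of 0.5 or 5, TMM, quantile normalization, library weights, robust empirical Bayes, 12 libraries, a replicate block, DESeq2 1.42.0 and edgeR 4.0.16 (both fitted to the recovered reads), and leaving out each library. The limma fit was tested on simulated counts, for the genotype contrast after B-IRI. Those counts had the same dispersion in all groups, unlike the unequal spread of the chains. The edgeR and DESeq2 fits were not tested in that way. Python 3.11.15 was used elsewhere.

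Exon lengths and places are from GENCODE M21, which is not the annotation behind the counts. Promoters are from RefSeq, and all 3 chains matched by symbol. The chains, the 15 other gene lists and the rules were chosen with earlier results of these data known. Named genes were, per list, the 4 most abundant tested, every gene behind a count of 5 or fewer, and a few fixed names (among them Il6, Stat3, Socs3, F2, F3, Plg, Plat, Plau, Alb, Ahsg, Cps1 and Pf4). Krt20 and Gp1bb were named after their values were seen. Some genes and 1 motif of the lists are not reported here.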

Additional observations from a re-analysis of the deposited data

Results flagged for a closer look

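Among the 6 B-IRI PolgD257A libraries, replicate 3 stood apart as the lowest in all 3 chains on the log2 scale, by a gap larger than Dixon's 95% limit for 6 values. It held 2566 normalized counts of Fga, 471 of Fgb and 2378 of Fgg, where the next lowest libraries held 7667, 1521 and 6206. The Fga to Fgb ratio of Sham Polg+/+ replicate 6 stood apart in the same way, at 7.28 against 18.6 to 29.2 in the other libraries of its group. These were 4 of 24 groups of 6 examined, where chance flags about 1 in 20, and the chain values of 1 library are not independent of each other.

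The rise after B-IRI differed between PolgD257A and Polg+/+ by the interaction term for all 3 chains, at log2 1.38 for Fga, 1.90 for Fgb and 1.70 for Fgg, higher in PolgD257A each time. The chains were chosen on the size of these rises, so the test is not independent of the choice. Without B-IRI PolgD257A replicate 3 these were 1.69, 2.26 and 1.98.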

How the results depend on the processing

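The genotype difference after B-IRI kept its direction and its call for all 3 chains under the 12 other settings (1.79 to 1.93 for Fga, 2.08 to 2.19 for Fgb, 1.68 to 1.80 for Fgg) and without each library in turn (1.60 to 2.10, 1.83 to 2.44 and 1.47 to 1.97). The interaction did so without each library (1.19 to 1.69, 1.64 to 2.26 and 1.48 to 1.98) and under the 11 settings that give it, except that Fgb lost its call in edgeR (2.04, adjusted p = 0.0501). A fit of 12 libraries gives no interaction. In sham no chain was called under any setting. With the replicate number as a block, the differences after B-IRI were 1.79, 2.09 and 1.68 (adjusted p = 7.42e-05, 0.000146 and 9.27e-05) and 4786 genes passed in place of 5140, with no chain's call changed. No clear pairing by number was seen: same-numbered libraries of 2 groups correlated by -0.326 to 0.174, and at most 2 of 6 pairs exceeded 0.1. They were not compared with differently numbered libraries, so this check cannot exclude a pairing. The Fgb to Fgg ratio ranged from 0.33 to 0.48 without 1 library (passing without PolgD257A replicate 3, 0.48, or 6, 0.46), Fga to Fgb from -0.38 to -0.23 (passing without PolgD257A replicate 6) and Fga to Fgg from 0.05 to 0.13. By Spearman's rho Fga with Fgb in Polg+/+ (0.886) and Fga with Fgb (0.771) and Fgb with Fgg (0.829) in PolgD257A did not pass, and r of Fga with Fgb in PolgD257A turned to -0.020 without the 2 farthest libraries. Genes passing between genotypes in sham numbered 22, against 55 with library weights, 37 with 12 libraries and 44 in DESeq2, for which the cause was not tested. Leaving out B-IRI PolgD257A replicate 3, added after seeing the data, kept list counts between the injured genotypes within 1.5 times. In sham, 12 to 47 reads of Fgb per library limit its folds.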
